A study of Homo sapiens with 12 samples.

Results

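The keratin genes of human breast and ovarian cancer cell lines are described here, taken as every gene whose symbol is KRT followed by a number, with or without a final letter A, B or C. The rule found 55 of the 57187 genes in the count table, and it used no measured value. Of the 55, 29 encode type I keratins and 26 encode type II keratins. By the highest level in any of the 12 libraries, 19 keratins reached a level of 10 CPM (counts scaled to library size), 5 peaked between 1 and 10 CPM, 22 had counts but stayed below 1 CPM, and 9 had no count at all.

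The data are bulk mRNA sequencing libraries of 4 cell lines, MDA-MB-231 and HCC1954 from breast cancer, and OVCAR8 (written OVAR-8 in the sample labels) and SKOV3 (written SKOV-3) from ovarian cancer. Each line gave 3 libraries, of control cells (EV), of cells stably expressing wild-type SIVA (SIVA-WT) and of cells stably expressing the SIVA-D160N mutant, so that every combination of line and condition was sequenced once. SIVA is a small pro-apoptotic protein, and the design asked how the mutant changes gene expression. All lines were grown in RPMI-1640 with fetal bovine serum, and the transfected pools were polyclonal, selected with antibiotic after introduction of a linearized plasmid. The labels give the control cells as parental with no treatment, whereas the study speaks of an empty vector, so the controls may not carry what the other cells share (plasmid and selection). SIVA1 ranged from 0 to 65.7 CPM in the EV libraries, from 37.8 to 175 CPM in SIVA-WT and from 26.4 to 159.5 CPM in SIVA-D160N, and it was higher in both transfected libraries than in EV in every line. The library with no SIVA1 count was the HCC1954 EV library. Libraries held 35791455 to 45890398 counts, and 3 counts in a library corresponded to 0.0666 to 0.0852 CPM. Conditions could be tested over the 4 lines, but not within a line, where each condition has 1 library.

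Keratins are the intermediate filament proteins of epithelial cells. A filament is built from pairs of a type I and a type II chain, so an epithelium makes at least a partner of each type. KRT8 and KRT18 form the filaments of simple epithelia such as the secretory cells of the breast and the ovarian surface, KRT5 with KRT14 or KRT15 those of the basal layer of stratified epithelia, KRT6 with KRT16 and KRT17 those of wounded or proliferating epithelia, KRT1 with KRT10 those of differentiating epidermis, KRT4 with KRT13 those of internal stratified epithelia, and a further set those of hair and nail. In pathology, keratins serve to assign a carcinoma to its epithelium of origin.

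Promoter sequences, from RefSeq on GRCh38.p14, were at hand for 34 of the 55 keratins, and the 250 bases before the transcription start were searched on both strands for 3 short motifs. The TATA box letters TATAAA stood in 20 of the 34 keratin windows (58.8%) and in 11.1% of all 27305 promoter windows. Of these 20 keratins, only KRT10 and KRT34 reached 1 CPM in any library, so the share describes mostly keratins below that level here. The GC box letters GGGCGG stood in 4 of the 34 (11.8%), KRT37, KRT38, KRT75 and KRT9, and in 42.3% of all windows. The AP-1 letters TGANTCA stood in 0 of the 34 and in 6.60% of all windows. The 34 do not include KRT6A, KRT7, KRT15, KRT17, KRT18, KRT80 or KRT81, so none of the 3 shares describes those keratins. The windows of 4 keratins on which the results turn are printed 5′ to 3′ on the minus strand, on which the genes are read, each ending at the base before the start, with a motif in capitals where there was a match: KRT10 (chr17:40822615-40822864), which all 4 lines expressed, KRT5 (chr12:52520395-52520644) and KRT75 (chr12:52434372-52434621), whose levels of at least 1 CPM were in HCC1954 alone, and KRT4 (chr12:52814117-52814366), which was lower in the SIVA-D160N than in the EV library of HCC1954.
KRT10: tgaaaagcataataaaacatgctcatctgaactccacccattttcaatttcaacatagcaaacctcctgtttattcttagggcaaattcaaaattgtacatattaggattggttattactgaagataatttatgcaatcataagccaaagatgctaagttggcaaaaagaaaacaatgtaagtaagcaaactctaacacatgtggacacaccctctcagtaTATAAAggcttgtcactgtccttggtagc
KRT5: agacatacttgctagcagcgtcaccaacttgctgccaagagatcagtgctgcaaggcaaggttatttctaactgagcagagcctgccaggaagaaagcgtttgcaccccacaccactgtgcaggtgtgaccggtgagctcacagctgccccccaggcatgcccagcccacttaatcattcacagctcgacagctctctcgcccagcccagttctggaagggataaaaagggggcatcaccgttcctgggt
KRT4: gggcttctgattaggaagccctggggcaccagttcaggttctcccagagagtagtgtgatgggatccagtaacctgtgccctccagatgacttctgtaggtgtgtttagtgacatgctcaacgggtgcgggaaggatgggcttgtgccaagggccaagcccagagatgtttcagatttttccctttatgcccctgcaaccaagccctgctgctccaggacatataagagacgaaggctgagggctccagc
KRT75: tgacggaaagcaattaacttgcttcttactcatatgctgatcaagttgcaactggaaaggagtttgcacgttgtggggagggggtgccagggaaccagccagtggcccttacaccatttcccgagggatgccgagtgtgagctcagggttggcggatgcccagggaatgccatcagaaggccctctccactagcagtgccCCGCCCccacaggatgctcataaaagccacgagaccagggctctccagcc
The TATA box letters of KRT10 begin 29 bases before the start, and the GC box of KRT75 lies on the opposite strand 50 bases before it. None of the 3 letter strings occurred in these windows of KRT5 and KRT4. A match is a description of letters and not of a bound site.

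HCC1954 had the widest and strongest keratin repertoire. Among the 19 keratins that reached 10 CPM, the mean over a line's 3 libraries was highest in HCC1954 for 16, in SKOV3 for 2 (KRT80 and KRT14) and in MDA-MB-231 for 1 (KRT19), and OVCAR8 was highest for 0. KRT4, KRT5, KRT6A, KRT6B, KRT13, KRT16, KRT23, KRT75 and KRT86 passed 10 CPM in HCC1954 alone, so they entered the 19 through that line. The count is a description, and no share over all genes stands beside it. Keratin transcripts made up 1.27 to 1.62% of all counts in HCC1954, 0.326 to 0.384% in OVCAR8, 0.141 to 0.185% in SKOV3 and 0.0889 to 0.0992% in MDA-MB-231. Of the 55, the number at or above 1 CPM was 20 to 22 in the HCC1954 libraries, 10 or 11 in those of MDA-MB-231 and SKOV3, and 6 in those of OVCAR8. The heatmap of the 24 keratins above 1 CPM shows this difference in breadth. In these bulk samples, fewer cells making a keratin and less of its RNA per cell cannot be told apart. Values in CPM below are given per library in the order EV, SIVA-WT and SIVA-D160N.

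**Figure D1:**
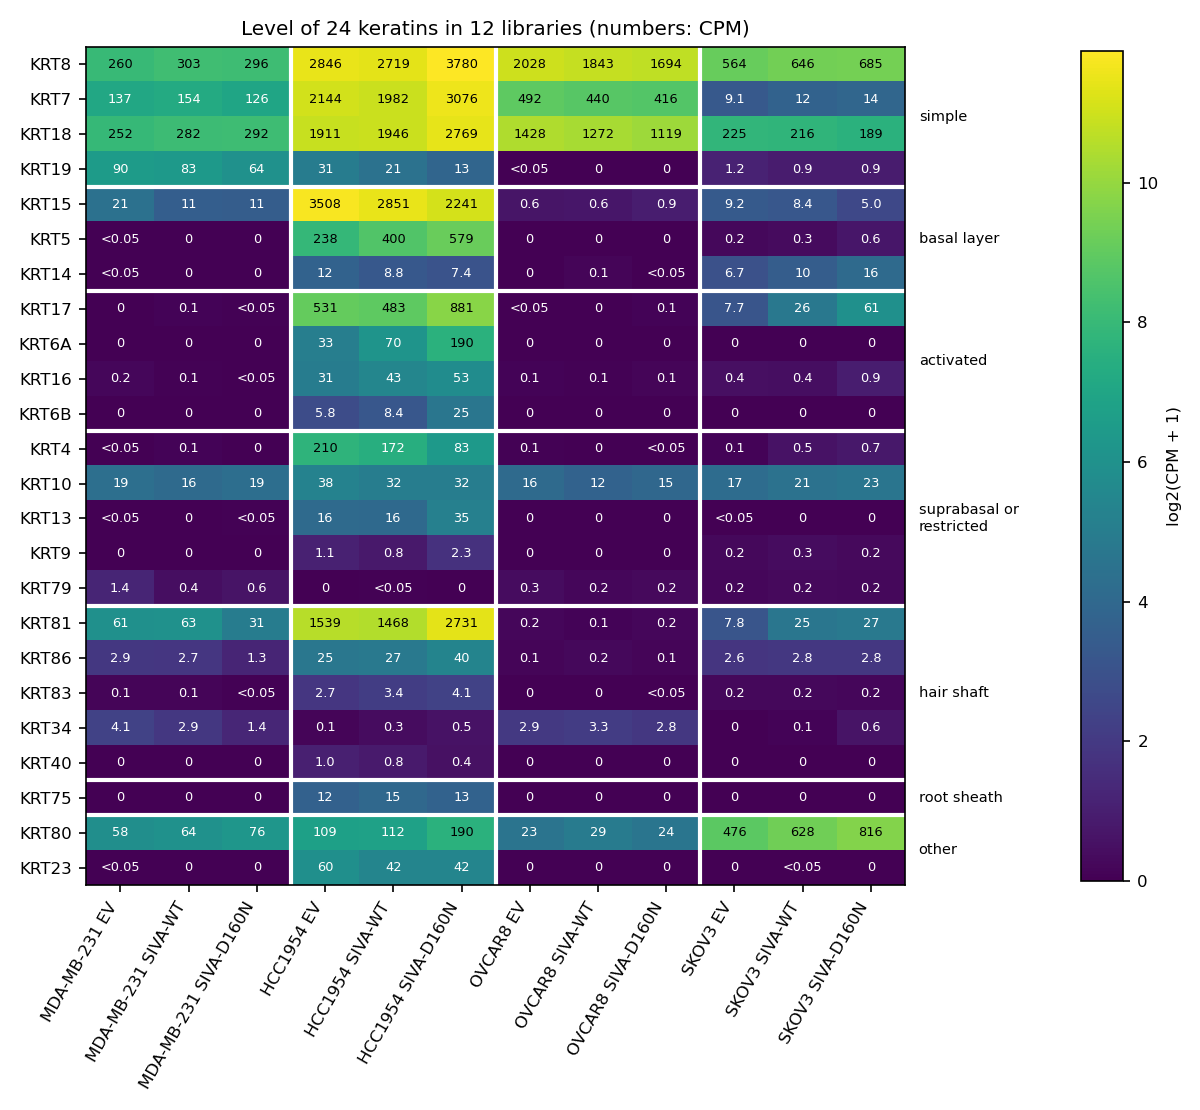
Heatmap of the 24 keratins that reached 1 CPM (rows, grouped by the epithelium in which they are typical) in the 12 libraries (columns, by line and condition), with colour as log2(CPM + 1) and CPM printed in each cell. KRT8, KRT18, KRT10 and KRT80 are above 10 CPM in all 12 libraries, and most other rows are filled in HCC1954.

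Of the 5 simple epithelial keratins, KRT8, KRT18, KRT7 and KRT19 passed 10 CPM, while KRT20, typical of intestinal epithelium, peaked at 0.115 CPM. KRT8, the main type II chain of simple epithelia, stood at 259.6, 303 and 296 CPM in MDA-MB-231, at 2846, 2719 and 3780.1 in HCC1954, at 2028, 1843 and 1694 in OVCAR8, and at 564, 646 and 685 in SKOV3. KRT18, its type I partner, stood at 252, 282 and 292 CPM in MDA-MB-231, at 1911, 1946 and 2769 in HCC1954, at 1428, 1272 and 1119 in OVCAR8, and at 225, 216 and 189 in SKOV3. The ranges of the 4 lines did not overlap for either gene. Exons annotated for the KRT8 gene, taken over all its transcripts, overlap 26.5% of the length of KRT18 on the opposite strand. How many KRT8 reads came from those exons was not measured. Since the strand setting of the counting is not given in the sources used here, KRT18 levels are uncertain to that extent. HCC1954 exceeded OVCAR8 by a log2 fold change of 0.73 ± 0.14 (SE) for KRT8 (adjusted p = 0.000455) and 0.79 ± 0.16 for KRT18 (adjusted p = 0.000828), and KRT18 in MDA-MB-231 exceeded SKOV3 by 0.39 ± 0.16 (adjusted p = 0.0465). These 3 differences lay under the fold required for a call, which was 1.5 or more on the log2 scale in either direction, at an adjusted p under 0.05 in edgeR's quasi-likelihood test.

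KRT7, a type II keratin of glandular epithelia that many breast and ovarian carcinomas retain, was low in SKOV3. The opposite-strand gene KRT7-AS overlaps 13.6% of the KRT7 transcript. KRT7 levels were 137, 154 and 126 CPM in MDA-MB-231, 2144, 1982 and 3076 in HCC1954, 492, 439.9 and 416 in OVCAR8, and 9.10, 12.3 and 14.0 in SKOV3. The 4 ranges were separate, and each pair of lines passed the call. The smallest of the 6 differences in KRT7 was that of OVCAR8 over MDA-MB-231 (1.70 ± 0.18 on the log2 scale, adjusted p = 7.78e-06), and SKOV3 fell below MDA-MB-231 by 3.57 ± 0.20 (adjusted p = 3.32e-08). KRT19, the smallest keratin and a marker of luminal cells, ran in another order. It stood at 90.0, 83.4 and 64.1 CPM in MDA-MB-231, at 30.6, 21.4 and 13.5 in HCC1954, at 1.19, 0.895 and 0.883 in SKOV3, and had 1 count in the 3 OVCAR8 libraries together. KRT19 was the only keratin over 10 CPM that was highest in MDA-MB-231, 1.91 ± 0.16 above HCC1954 on the log2 scale (adjusted p = 6.72e-07).

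All 3 keratins of the basal layer passed 10 CPM in HCC1954, as did KRT15 in MDA-MB-231 and KRT14 in SKOV3. KRT15, a type I keratin of basal and stem-like cells, was at 20.5, 10.7 and 10.5 CPM in MDA-MB-231, 3508, 2851 and 2241 in HCC1954, 0.598, 0.626 and 0.908 in OVCAR8, and 9.18, 8.37 and 4.96 in SKOV3. HCC1954 was above MDA-MB-231 by 7.72 ± 0.26 on the log2 scale for KRT15 (adjusted p = 4.43e-10). KRT5, the type II chain of basal cells, reached 238, 399.8 and 579 CPM in HCC1954 and stayed at 0.185, 0.268 and 0.638 in SKOV3. In MDA-MB-231 KRT5 had 1 count in 3 libraries, and in OVCAR8 it had 0. KRT14, the usual type I partner of KRT5, was instead at 12.4, 8.78 and 7.35 CPM in HCC1954 and at 6.70, 10.3 and 16.2 in SKOV3. These KRT14 ranges overlapped, and SKOV3 and HCC1954 were not separated by the test (0.17 ± 0.36, adjusted p = 0.699). Elsewhere KRT14 was at most 0.104 CPM.

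Of the 5 activated-epithelium keratins, KRT17, KRT6A, KRT16 and KRT6B passed 10 CPM in HCC1954, and KRT6C peaked at 0.805 CPM. KRT17, a type I keratin induced in injured skin and typical of basal-like carcinomas, was at 531, 483 and 881 CPM in HCC1954 and at 7.65, 25.8 and 60.7 in SKOV3, with at most 0.101 CPM in MDA-MB-231 and OVCAR8. KRT6A, its wound-induced type II partner, was at 33.2, 70.2 and 190.2 CPM in HCC1954 and had no count in the other 9 libraries. KRT6B, its close copy, was at 5.81, 8.41 and 24.8 CPM in HCC1954 and likewise had no count elsewhere. Against the limit that a count of 0 allows (3 counts per library), the HCC1954 mean was at least 1200.2-fold higher for KRT6A and at least 159.5-fold higher for KRT6B. Without the SIVA-D160N library, which was the highest for both, these limits were 634-fold and 87.2-fold. KRT16, the type I keratin of activated keratinocytes, was at 31.3, 43.2 and 53.1 CPM in HCC1954 and below 1 CPM in the other lines. KRT6A, KRT6B and KRT6C share identical stretches (18.2 to 31.4% of their 100-base windows), so the division of reads among them is uncertain.

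Among the 13 suprabasal or tissue-restricted keratins, only KRT4, KRT10 and KRT13 passed 10 CPM. KRT10, the type I keratin of differentiating epidermis, was expressed in all 4 lines, at 19.2, 16.3 and 18.7 CPM in MDA-MB-231, 38.0, 32.2 and 31.9 in HCC1954, 16.4, 12.2 and 14.6 in OVCAR8, and 17.4, 21.3 and 23.5 in SKOV3. Its levels in HCC1954 lay above those in the other lines, by 0.71 ± 0.15 on the log2 scale over SKOV3 (adjusted p = 0.00104). SKOV3 and MDA-MB-231 were not separated by the test for KRT10 (0.20 ± 0.15, adjusted p = 0.241), nor were MDA-MB-231 and OVCAR8 (0.33 ± 0.15, adjusted p = 0.0707). KRT1, the type II partner of KRT10 in epidermis, had no count in any of the 12 libraries. KRT4, a type II keratin of oral and oesophageal lining, was at 210.2, 172 and 83.3 CPM in HCC1954 and at most 0.687 in the other lines. Its partner KRT13 was at 16.3, 15.8 and 34.8 CPM in HCC1954 and at most 0.0488 elsewhere. About 14.6% of the 100-base windows of KRT13 coincide with those of a gene annotated on the opposite strand.

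Of the 17 hair and nail keratins, KRT81 and KRT86 passed 10 CPM, 3 peaked between 1 and 10 CPM, 10 had counts but stayed below 1 CPM, and 2 had no count. KRT81, a type II keratin of the hair cortex, reached 1539, 1468 and 2731 CPM in HCC1954. Per length this was 991 ± 368 RPKM (SD, n = 3), beside 1563 ± 343 RPKM for KRT18 in the same line. KRT81 was at 60.6, 63.4 and 31.3 CPM in MDA-MB-231, at 7.76, 24.8 and 27.0 in SKOV3, and at most 0.163 in OVCAR8. For KRT81, HCC1954 was above MDA-MB-231 by 5.13 ± 0.45 on the log2 scale (adjusted p = 1.04e-06). The lower value in SKOV3 than in MDA-MB-231 (-1.52 ± 0.40, adjusted p = 0.00565) sat at the fold threshold, and without the SKOV3 EV library it was -1.02. KRT86, another type II hair keratin, was at 25.0, 26.5 and 39.8 CPM in HCC1954, at 2.86, 2.70 and 1.34 in MDA-MB-231 and at 2.56, 2.75 and 2.82 in SKOV3, the latter pair of lines not being separated (adjusted p = 0.493). KRT86 shares 32.0% of its 100-base windows with other genes, chiefly KRT81, and KRT81 shares 30.3%, and KRT81 lies inside the span annotated for KRT86 on chromosome 12, so the division of reads between them is uncertain.

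KRT80 and KRT23 stand outside these classes. KRT80, a type II keratin found in many epithelia, was at 57.6, 63.7 and 75.5 CPM in MDA-MB-231, 109, 112 and 190.1 in HCC1954, 23.0, 29.5 and 23.6 in OVCAR8, and 476, 628 and 816 in SKOV3. Its ranges did not overlap between any of the lines, and SKOV3 lay above HCC1954 by 2.23 ± 0.17 on the log2 scale for KRT80 (adjusted p = 3.42e-07). KRT23, a type I keratin of glandular epithelia, was at 60.3, 42.0 and 41.9 CPM in HCC1954 and at most 0.0224 elsewhere. Among the 9 keratins of the hair follicle root sheath, KRT75 alone passed 10 CPM, with 11.8, 15.2 and 12.5 CPM in HCC1954 and no count in the other lines (at least 161.8-fold higher).

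The 5 keratins that peaked between 1 and 10 CPM were KRT34, KRT40, KRT83, KRT79 and KRT9. KRT34, a type I hair keratin, ranged from 1.39 to 4.06 CPM in MDA-MB-231 and from 2.80 to 3.29 in OVCAR8, against at most 0.564 in HCC1954 and SKOV3. It was the only keratin above 1 CPM whose mean was highest in OVCAR8, although the test did not separate OVCAR8 from MDA-MB-231 for KRT34 (0.08 ± 0.59, adjusted p = 0.939). KRT83 was at 2.67 to 4.15 CPM, KRT9 at 0.782 to 2.27 CPM and KRT40 at 0.426 to 1.05 CPM in HCC1954. KRT79 peaked at 1.38 CPM in MDA-MB-231. Of the 22 keratins with counts that stayed below 1 CPM, the highest was KRT78 at 0.909 CPM, the largest count was 35, and 18 of 22 had their highest mean in HCC1954. Some of the 22 had counts in only 1 library and were highest in its line by construction, so this too is a description. The 9 without a count were KRT1, KRT12, KRT26, KRT28, KRT35, KRT38, KRT73, KRT76 and KRT77, of which 4 are suprabasal or tissue-restricted, 3 belong to the root sheath and 2 to hair and nail.

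The genes lie in 2 clusters, with 26 type II genes and the type I gene KRT18 on chromosome 12 and 28 type I genes on chromosome 17. Of the keratins over 10 CPM, 10 were type II, all on chromosome 12, and 9 were type I, 8 of them on chromosome 17. On chromosome 12, KRT75, KRT6B, KRT6C, KRT6A and KRT5 are neighbours, between 52424070 and 52520394 (GRCh38), and all 5 had their highest level in HCC1954. This was not particular to that run, as HCC1954 was highest for 19 of 24 keratins that reached 1 CPM. It was also highest for 18 of 22 with counts below 1 CPM. The next 9 genes of that cluster, KRT71 to KRT3, stayed below 1 CPM in all 12 libraries, 4 of them with no count. KRT8 and KRT18 lie side by side at the far end of the same cluster. Exons of any annotated KRT8 transcript overlap the KRT18 transcript on the opposite strand by 375 bases. On chromosome 17, KRT13, KRT15 and KRT19 are adjacent, and their highest lines differed (HCC1954, HCC1954 and MDA-MB-231). The plot along the clusters shows expressed keratins lying between neighbours below 1 CPM.

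**Figure D2:**
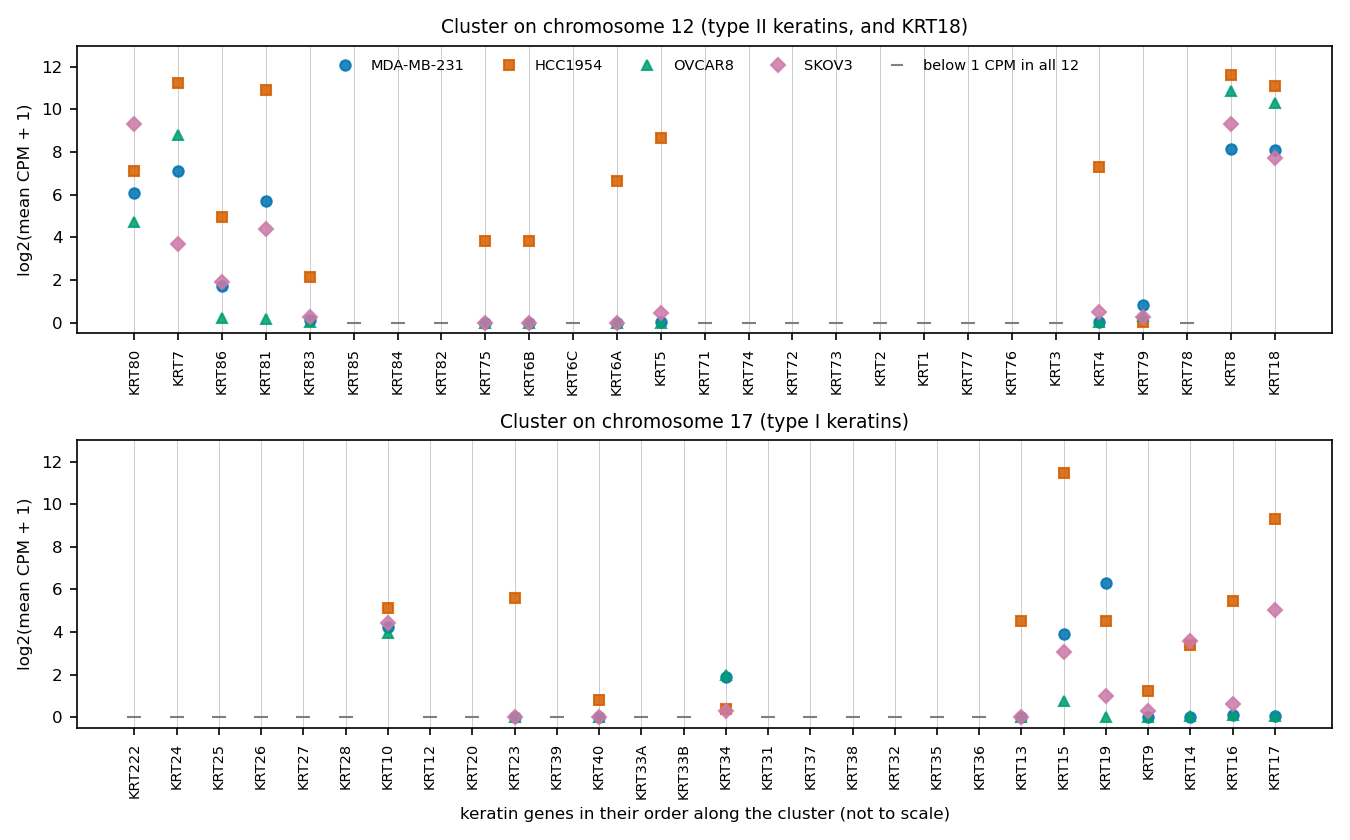
Mean level per line, as log2(CPM + 1) (vertical axis), of each keratin that reached 1 CPM. The horizontal axis is the order along the chromosome 12 cluster (27 genes) and the chromosome 17 cluster (28 genes). Points mark the 4 lines, and grey dashes mark genes below 1 CPM in all 12 libraries. HCC1954 points lead for KRT75, KRT6B, KRT6A, KRT5, KRT13 and KRT15, whereas KRT8, KRT18, KRT10 and KRT80 are present in all 4 lines.

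To compare levels between genes, CPM was divided by transcript length (RPKM, which is CPM per kilobase of transcript). Summed over keratins, RPKM was 545, 590.4 and 549 in MDA-MB-231, 7837, 7301 and 9845 in HCC1954, 2466, 2220.3 and 2012 in OVCAR8, and 633, 739 and 819 in SKOV3. The makeup of that sum differed by line. Simple epithelial keratins gave 99.2 to 99.3% of it in OVCAR8, 86.8 to 90.4% in MDA-MB-231, 64.4 to 76.1% in SKOV3 and 54.7 to 60.8% in HCC1954. In HCC1954 the basal keratins gave 27.6, 25.3 and 16.0% of keratin RPKM, hair and nail keratins gave 10.4, 10.6 and 14.6%, and activated keratins gave 4.92, 5.19 and 7.17%. In SKOV3 the unclassified group, which there is KRT80, gave 19.4, 22.0 and 25.8%, and the activated keratins gave 0.837, 2.33 and 4.96%. The first-ranked keratin by RPKM was KRT18 in the MDA-MB-231 libraries, KRT8 in those of OVCAR8 and SKOV3, and in HCC1954 it was KRT15 in EV and SIVA-WT and KRT8 in SIVA-D160N.

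**Figure D3:**
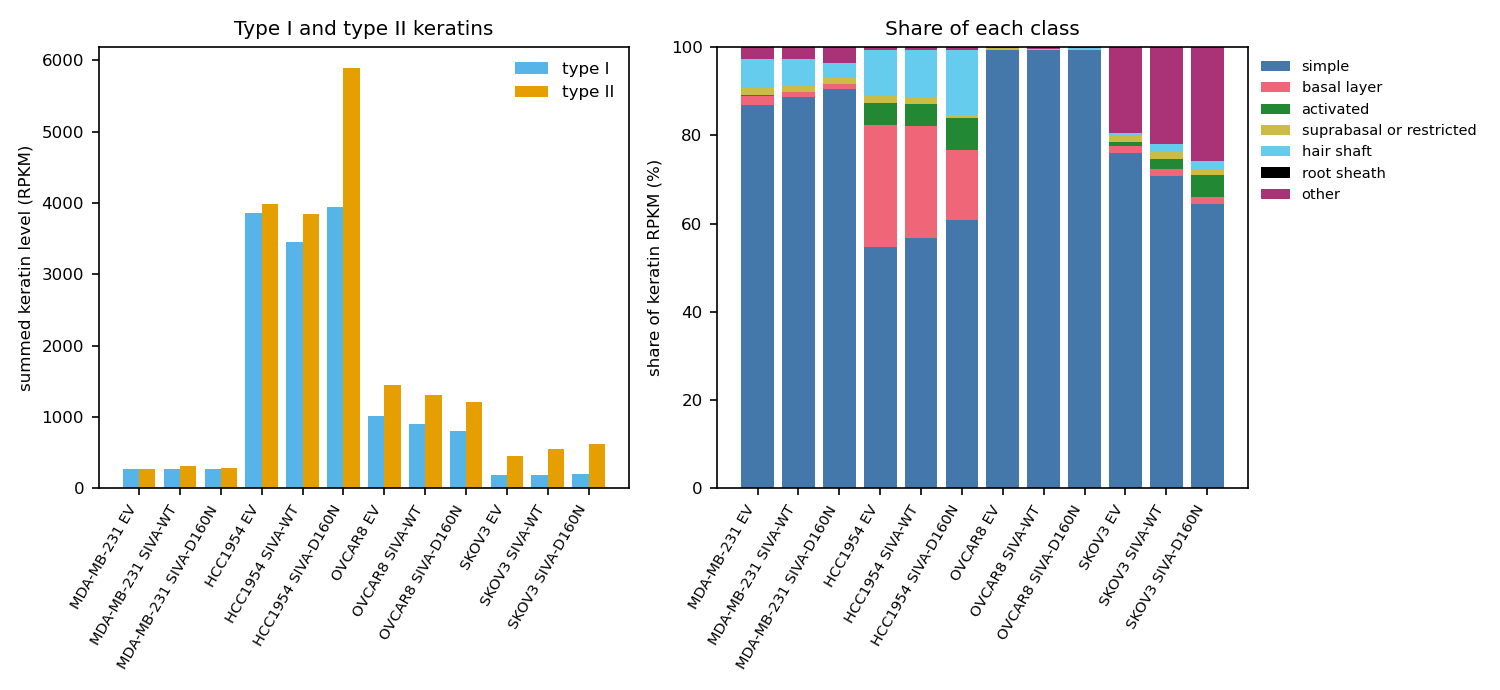
Left, summed RPKM of type I and type II keratins in each library as bars starting at 0. Right, the share of keratin RPKM held by each class (percent, stacked to the whole). Type II exceeds type I in all 12 libraries, by 1.03-fold to 3.11-fold, and OVCAR8 is almost wholly simple epithelial keratin.

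The type II to type I ratio of summed RPKM was 1.04, 1.14 and 1.04 in MDA-MB-231 and 1.03, 1.11 and 1.49 in HCC1954. It was 1.42, 1.44 and 1.51 in OVCAR8 and 2.46, 2.84 and 3.11 in SKOV3. The HCC1954 SIVA-D160N value lay inside the OVCAR8 range, so the ranges of the breast and ovarian lines overlapped, and an exact permutation test of 2 lines against 2 cannot go below a two-sided p of 0.333. Within the KRT8 and KRT18 pair, the KRT8 to KRT18 ratio of RPKM was 0.815, 0.849 and 0.802 in MDA-MB-231, 1.18, 1.11 and 1.08 in HCC1954, 1.12, 1.15 and 1.20 in OVCAR8, and 1.98, 2.37 and 2.88 in SKOV3. The 3 SKOV3 values lay above all 9 others. The bases that KRT18 shares with KRT8 make these ratios uncertain. Other canonical pairs spread more widely in HCC1954. KRT5 exceeded KRT14 in RPKM by 14.0, 33.3 and 57.6-fold, while KRT15, the other basal type I chain, exceeded KRT5 by 19.3, 9.32 and 5.06-fold. KRT17 exceeded KRT6A by 24.3, 10.5 and 7.05-fold, and KRT4 exceeded KRT13 by 10.3, 8.68 and 1.92-fold. KRT6A to KRT16 was at 0.763, 1.17 and 2.57. In SKOV3, where KRT14 was expressed, KRT5 had 7, 12 and 26 counts. Each ratio is of 1 library and has no replicate.

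Between lines, all 25 keratins that passed the filter on low counts differed at an adjusted p under 0.05 in edgeR's quasi-likelihood test for any difference among the 4 lines, where 94.1% of the 19204 genes tested did so. A keratin expressed in 1 line passes that filter through that line and had to differ, so the count is a description. HCC1954 against MDA-MB-231 gave 23 of 25 calls (20 higher and 3 lower), against a background of 33% of genes called (19.6% higher and 13.5% lower). OVCAR8 against HCC1954 gave 22 (2 higher and 20 lower, with 34.3% of genes called, 16.6% higher and 17.7% lower), and SKOV3 against HCC1954 gave 22 (2 higher and 20 lower, with 32.8% called, 16% higher and 16.8% lower). OVCAR8 against MDA-MB-231 gave 9 calls (3 higher and 6 lower), where 26.3% of genes were called (15.7% higher and 10.6% lower). SKOV3 against MDA-MB-231 gave 13 (8 higher and 5 lower), where 29.6% were (17.2% higher and 12.4% lower). SKOV3 against OVCAR8 gave 16 (12 higher and 4 lower), where 31.1% were (15.3% higher and 15.8% lower). The 3 keratins lower in HCC1954 than in MDA-MB-231 were KRT19 (-1.91), KRT34 (-3.24) and KRT79. The 3 libraries of a line differ in condition, and the p-values measure the spread between those libraries, which may be partly technical.

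Across the 4 lines, no keratin passed the call between conditions. In the fit with line as a block, 17 of the 55 keratins passed the filter on low counts. Of these, 0 were called in SIVA-WT against EV (0% of 17211 genes were called), 0 in SIVA-D160N against EV (0.00581% called) and 0 in SIVA-D160N against SIVA-WT (0% called). DESeq2 also called 0 in each. At an unadjusted p under 0.05, SIVA-WT against EV gave 1 of 17 keratins, KRT5 (2.54% of all genes), SIVA-D160N against EV gave 5 (14.2% of all genes) and SIVA-D160N against SIVA-WT gave 3 (6.88% of all genes), KRT5, KRT17 and KRT19. The median log2 fold change of the 17 keratins in SIVA-D160N against EV was 0.19, with 12 above 0 and 5 below, beside -0.01 for all genes tested. In SIVA-WT against EV it was 0.06, with 11 above 0 and 6 below, beside -0.01. Both comparisons share the EV libraries.

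The 5 keratins with the smallest p-values in SIVA-D160N against EV did not pass adjustment in the fit reported here. KRT5 gave a log2 fold change of 1.34 ± 0.22 (adjusted p = 0.128), higher in SIVA-D160N in both lines with at least 20 counts in either library, HCC1954 (20401 against 9970 counts) and SKOV3 (26 against 7 counts). KRT17 gave 1.71 ± 0.42 (adjusted p = 0.155), higher in 2 of 2 lines, and its value was 0.78 without SKOV3 and 2.90 without HCC1954. KRT80 gave 0.52 ± 0.14 (adjusted p = 0.191), higher in 4 of 4 lines. KRT19 gave -0.77 ± 0.17 (adjusted p = 0.148), lower in 3 of 3 lines. KRT15 gave -0.68 ± 0.19 (adjusted p = 0.199), lower in 3 of 4 lines with OVCAR8 on the other side. Adjustment depended on the processing. Over 11 alternatives in edgeR or DESeq2, the lowest adjusted p was 9.43e-05 for KRT5, 2.24e-05 for KRT17 and 0.00959 for KRT80. It was 0.00878 for KRT19 and 0.0027 for KRT15. The highest was 0.999998 for each of the 5. The log2 fold changes of KRT5, KRT80, KRT19 and KRT15 stayed under the fold required for a call in all 11. Without the filter on low counts, KRT17, KRT6A and KRT6B were called higher in SIVA-D160N than in EV (adjusted p = 2.24e-05, 3.30e-07 and 0.0028), along with 172 genes in all instead of 1, and KRT6A and KRT6B have counts in HCC1954 alone.

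**Figure D4:**
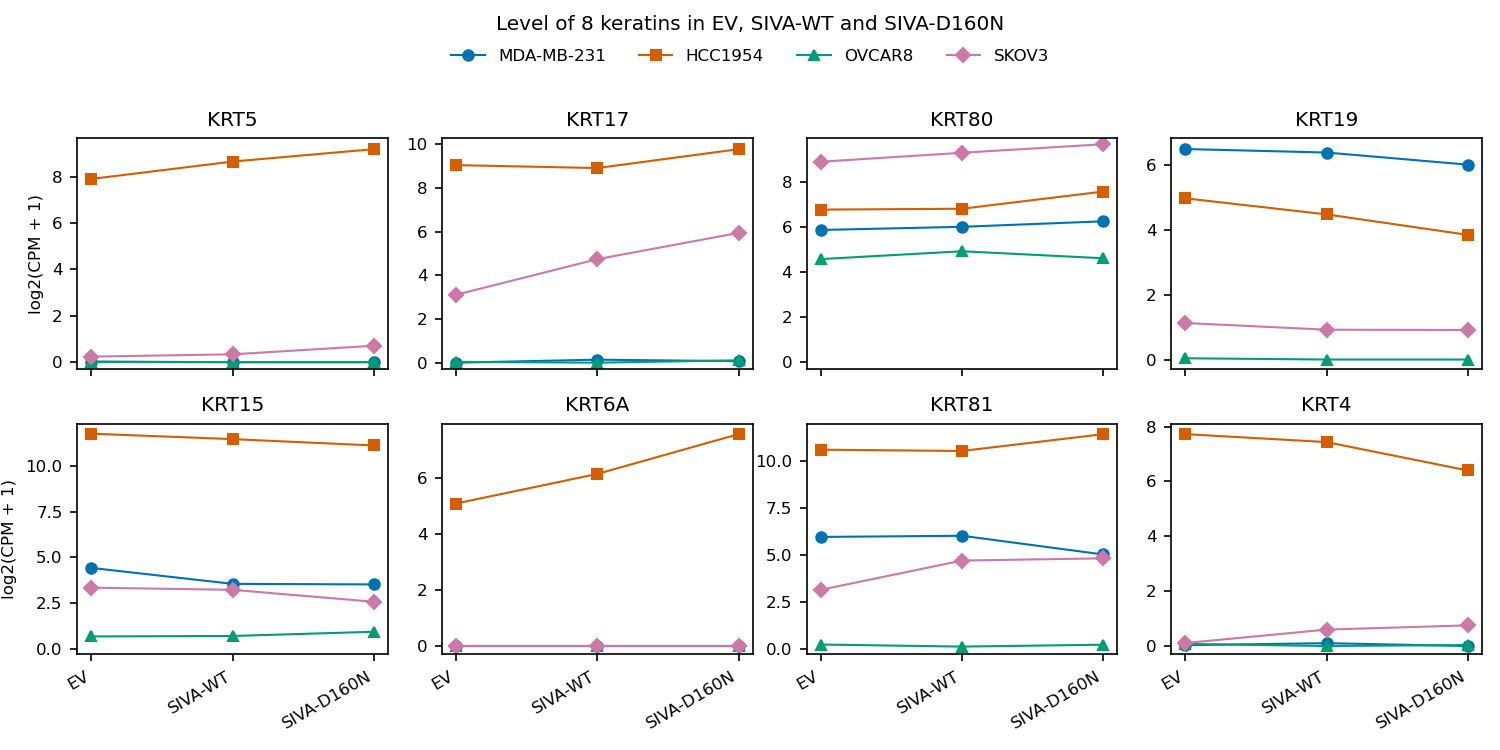
Levels of KRT5, KRT17, KRT80, KRT19, KRT15, KRT6A, KRT81 and KRT4 in CPM (1 panel each, log2(CPM + 1) scale) by condition, with a line joining the 3 libraries of each cell line. KRT80 is lowest in EV in each of the 4 lines and KRT19 is lower in SIVA-D160N than in EV in the 3 lines that express it.

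The 6 keratins with at least 20 counts in all 4 lines were KRT7, KRT8, KRT10, KRT15, KRT18 and KRT80. KRT80 alone was higher in SIVA-D160N than in EV in each line, by 0.04 to 0.81 on the log2 scale, where 8.25% of 12129 genes were higher in each line. It alone was also higher in SIVA-WT than in EV in each line, by 0.04 to 0.40, where 4.59% of 12176 genes were. KRT8 and KRT18 moved in both directions, from -0.26 to 0.41 for KRT8 and from -0.35 to 0.53 for KRT18 in SIVA-D160N against EV. A difference between ovarian and breast lines in the effect of SIVA-D160N against EV passed an adjusted p of 0.05 for 0 of the 17 keratins (0.00581% of all genes), and for 0 in DESeq2. At an unadjusted p under 0.05 the interaction gave 4 keratins (5.06% of all genes), KRT17 (2.22, adjusted p = 0.609), KRT4 (3.65, adjusted p = 0.676), KRT14 (2.05, adjusted p = 0.964) and KRT18 (-0.68, adjusted p = 0.964), each given as ovarian minus breast on the log2 scale. Expression of KRT17, KRT4 and KRT14 above background was in HCC1954 and SKOV3, so those 3 values compare 1 line of each tissue. Without HCC1954 the KRT17 value was -1.11, with MDA-MB-231 as the only breast line, where KRT17 had 0, 4 and 2 counts.

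Within single lines, where no test is possible, differences of at least 2-fold were counted among keratins with at least 20 counts in either library. A gene near that limit can enter through the library where it is higher, so these counts are a description. The shares over all genes used the same rule. In SKOV3, 7 of 15 keratins were at least 2-fold higher in SIVA-D160N than in EV (2.56% of all genes with such counts were) and 0 were 2-fold lower (5.23% were). They were KRT17 (7.93-fold), KRT81 (3.48-fold), KRT5 (3.45-fold), KRT14 (2.42-fold), KRT16 (2.15-fold), KRT34 (23 counts against 0) and KRT4 (28 counts against 3). KRT5 (26 counts against 7), KRT16 (37 against 16), KRT34 and KRT4 reached 20 counts in SIVA-D160N and not in EV. They entered through the library where they were higher. In HCC1954, 4 of 24 keratins were at least 2-fold higher (3.75% of genes), KRT6A (5.73-fold), KRT6B (4.26-fold), KRT5 (2.44-fold) and KRT13 (2.14-fold). Another 4 were at least 2-fold lower (6.54% of genes), KRT4 (2.52-fold), KRT40 (2.46-fold), KRT19 (2.28-fold) and KRT74, which stayed below 1 CPM. MDA-MB-231 had 0 of 11 higher (1.71% of genes were) and 3 lower (4.2% of genes), KRT34 (2.92-fold), KRT79 (2.45-fold) and KRT86 (2.13-fold). OVCAR8 had 0 of 7 in either direction, where 1.3% of genes were higher and 0.694% lower.

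The SIVA-WT libraries gave some of the same names. In SKOV3, 3 of 12 keratins were at least 2-fold higher in SIVA-WT than in EV (1.71% of genes), KRT17 (3.37-fold), KRT81 (3.19-fold) and KRT4 (23 counts against 3). In HCC1954, 2 of 25 were (2.78% of genes), KRT6A (2.12-fold) and KRT6C, and in MDA-MB-231 1 of 11, KRT79, was 3.89-fold lower (1.76% of genes were at least 2-fold lower). SIVA-D160N exceeded SIVA-WT at least 2-fold in HCC1954 for KRT6B (2.95-fold), KRT9 (2.91-fold), KRT6A (2.71-fold) and KRT13 (2.19-fold), where 1.89% of genes did, and in SKOV3, where 0.669% did, for KRT16 (2.54-fold), KRT5 (2.38-fold), KRT17 (2.35-fold) and KRT34 (23 counts against 4). KRT4 (2.06-fold) and KRT6C were lower in SIVA-D160N than in SIVA-WT in HCC1954 (7.11% of genes were), as were KRT34 (2.05-fold) and KRT81 (2.03-fold) in MDA-MB-231 (1.42% of genes). The median log2 ratio of keratins in SIVA-D160N against EV was 0.78 in SKOV3, 0.53 in HCC1954, -0.17 in OVCAR8 and -0.49 in MDA-MB-231, with all genes between -0.03 and 0.01. In SKOV3, KRT34, KRT4, KRT5 and KRT16 entered that median through the SIVA-D160N library alone. The comparisons with SIVA-WT carry the same limit. Other marker genes moved between the same libraries. In SKOV3, COL1A1, a collagen of fibroblasts and mesenchymal cells, stood at 23.8, 407 and 502 CPM. In HCC1954 the intermediate filament gene VIM stood at 94.9, 159 and 289 CPM, and the endothelial gene PECAM1 at 62.3, 59.6 and 32.4 CPM. Their part in the keratin differences was not tested.

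**Figure D5:**
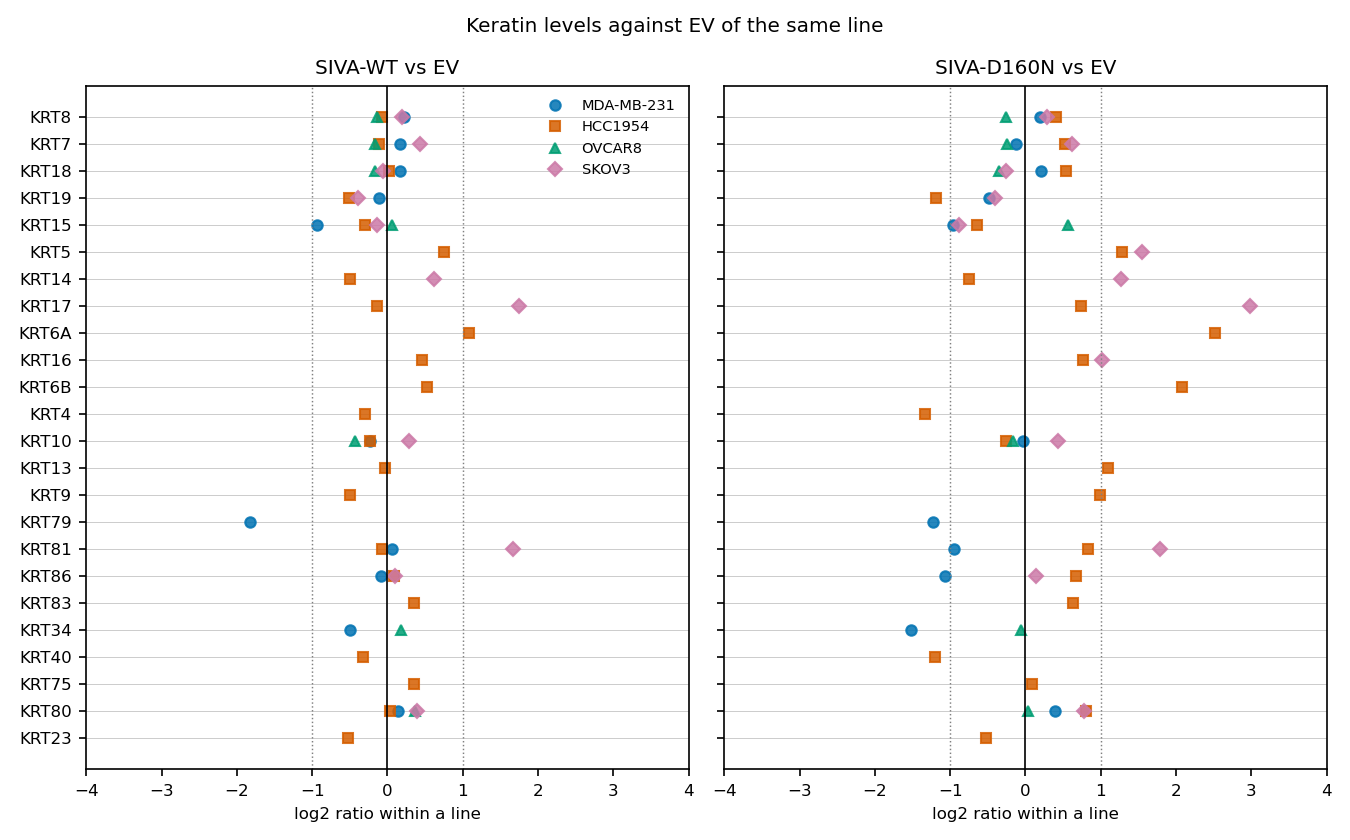
Log2 ratio of SIVA-WT to EV and of SIVA-D160N to EV (horizontal axis) for each keratin (rows) within each of the 4 lines, for keratins with at least 20 counts in either library and more than 3 in both. Dotted lines mark a 2-fold difference. KRT17, KRT81 and KRT5 in SKOV3 and KRT6A and KRT6B in HCC1954 lie beyond it to the right for SIVA-D160N.

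Genes that work with keratins were examined as lists. None of the tested members of 12 lists was called by edgeR between conditions. In SIVA-D160N against EV, the members at an unadjusted p under 0.05 (14.2% of all genes) were 3 of 9 other intermediate filament genes, 1 of 15 plakins and other keratin linkers, 2 of 13 desmosome and hemidesmosome genes, 1 of 6 cornified envelope genes and 0 of 12 transcription factors of epithelial keratin programmes. Of the marker lists for cell identity, they were 2 of 7 luminal, 2 of 4 basal, 1 of 3 Müllerian, 1 of 3 mesenchymal, 1 of 3 fibroblast and 2 of 3 endothelial genes, and 0 leukocyte markers passed the filter. The 2 basal genes were KRT5 and KRT17, and the luminal genes included KRT19. These keratins were given above and are not separate results. In HCC1954 against MDA-MB-231, where 33% of all genes were called (19.6% higher and 13.5% lower), 8 of 10 tested cornified envelope genes were called, all 8 higher, and 17 of 17 transcription factors, 15 higher and 2 lower. Of these, 4 of the 8 and 5 of the 17 had at most 10 counts in every library of the other 3 lines, so they passed the filter through HCC1954 and had to differ, and the counts are a description. Desmosome and hemidesmosome genes had 7 of 13 called (6 higher), plakins and linkers 8 of 15 (5 higher), and other intermediate filament genes 5 of 11 (1 higher and 4 lower).

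Among the named members, KLK5, a protease of the cornified layer, was at 835, 733 and 579 CPM in HCC1954 with no count elsewhere. TP63, the master regulator of stratified epithelia, was at 100.3, 97.1 and 70.2 CPM in HCC1954 and at most 0.694 in the other lines. GRHL2, a regulator of epithelial identity, was at 183, 199 and 241 CPM in HCC1954 and at most 0.0261 elsewhere. HOXC13, a regulator of hair keratin genes, was at 46.6, 39.0 and 35.2 CPM in HCC1954 and 2.67 to 3.32 CPM in OVCAR8. JUP, the desmosomal plakoglobin, was higher in HCC1954 than in MDA-MB-231 by 5.06 ± 0.25 on the log2 scale (adjusted p = 9.59e-09), and DSP, the desmoplakin that anchors keratin filaments, was at 442, 478 and 526 CPM in HCC1954 against 50.9, 67.5 and 63.0 in MDA-MB-231. VIM, the filament protein of mesenchymal cells, had the opposite order, at 2913 to 3943 CPM in the other 3 lines against 94.9 to 289 in HCC1954. NEFH, a neurofilament gene, was at 458, 364 and 391 CPM in OVCAR8 and at most 0.0245 in the other lines.

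The marker lists for cell identity, of which the luminal and basal lists hold keratins themselves, were set beside the labelled tissues. CDH1, the epithelial cadherin, was at 691 to 808 CPM in HCC1954 and at most 0.491 CPM in the other 3 lines, and EPCAM was at 204 to 246 CPM in HCC1954, 18.5 to 21.1 in OVCAR8 and at most 2.32 in MDA-MB-231 and SKOV3. PAX8, a factor of Müllerian epithelium, was at 60.6 to 75.7 CPM in OVCAR8 and 229 to 242 in SKOV3 against at most 3.44 in the breast lines. The other 2 Müllerian markers did not follow the labelled tissue. MUC16 was at 65.6 to 114 CPM in HCC1954 and at most 1.57 in the other 3 lines, and WT1 was at 5.49 to 8.01 CPM in HCC1954, 5.85 to 6.77 in OVCAR8 and at most 1.10 in SKOV3 and MDA-MB-231. GATA3, a luminal breast factor, was at 42.3 to 49.4 CPM in HCC1954 and 5.63 to 6.24 in OVCAR8, against 1.80 to 2.85 in MDA-MB-231 and at most 0.0245 in SKOV3, so it did not order the lines by tissue. In HCC1954 against MDA-MB-231 (33% of all genes called, 19.6% higher and 13.5% lower), the calls were 7 of 7 luminal (6 higher), 4 of 4 basal (4 higher), 2 of 3 Müllerian (2 higher), 2 of 3 mesenchymal (2 lower), 2 of 5 fibroblast (1 higher), 1 of 2 leukocyte (at most 10 counts in every library of the other lines) and 2 of 3 endothelial genes (2 higher). The basal list holds KRT5, KRT14 and KRT17, and the luminal list KRT8, KRT18 and KRT19, all described above. In MDA-MB-231, KRT5 and KRT14 had at most 1 count in a library and KRT17 at most 4, so the basal calls are a description. The 5 leukocyte markers summed to 0.146 to 1.69 CPM in all 12 libraries, with PTPRC at 0 outside HCC1954. The 3 endothelial markers summed to 46.0 to 91.0 CPM in HCC1954 and at most 4.06 elsewhere. The 6 fibroblast markers summed to 192 to 343 CPM in OVCAR8 and 37.3 to 532 in SKOV3, and to 4.73 to 25.4 in the breast lines.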

How the data were processed

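Each line and condition gave 1 library of polyadenylated RNA (TruSeq Stranded mRNA). Per the labels, reads were aligned with STAR 2.5.3a to GRCh38 and the authors used FastQC and edgeR; the annotation release and the strand setting of the counting are not given in the sources used here. The authors deposited whole-number read counts per gene, with 35791455 to 45890398 counts per library, and these counts were the only values used; their CPM table was not used here. CPM was computed from the counts with TMM factors, and RPKM with the length of each keratin's canonical GENCODE transcript, in which windows of 100 bases were also compared between genes. A count of 0 allows up to 3 counts per library, a limit that covers counting error only.

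Counts were fitted with edgeR 4.0.16 (R 4.3.3, quasi-likelihood, Benjamini-Hochberg adjustment over all genes). Conditions were compared with line as block, after filterByExpr by condition (17211 genes), and lines with condition as a term, after filterByExpr by line (19204 genes). A call needed an adjusted p under 0.05 and a log2 fold change of 1.5 or more in either direction. Line pairs the libraries, as same-numbered libraries are of the same line: deviations from the condition mean correlated at 0.932 to 0.978 within a line and at -0.469 to -0.149 between lines. The deviations of the 4 lines sum to 0 within a condition, so the negative sign between lines follows from subtracting that mean. Alternatives were DESeq2 1.42.0, its size factors, total counts, other filters, no block, and leaving out libraries or lines. Ratios within a line used a prior count of 2 and at least 20 counts in either library. Keratins at or above 10 CPM in any library were given in every library, those at 1 to 10 CPM by range, and of each list up to 4 called members by size of change. KRT6C, KRT20, KRT74 and KRT78, below 1 CPM, and the classes of keratins without a count were chosen for mention with their values known. The scripts were tested on simulated data. Members and lists were chosen with earlier results of these data known.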

Additional observations from a re-analysis of the deposited data

Results flagged for a closer look

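In each condition, the HCC1954 library stood far above the other 3 lines for 8 keratins, with a gap to the nearest line, on the log2(CPM + 1) scale, larger than Dixon's 95% critical value. KRT5 was at 238 CPM in EV, 399.8 in SIVA-WT and 579 in SIVA-D160N, and KRT4 at 210.2, 172 and 83.3 CPM. KRT6A was at 33.2, 70.2 and 190.2 CPM, and KRT6B at 5.81, 8.41 and 24.8 CPM. KRT23 was at 60.3, 42.0 and 41.9 CPM, KRT16 at 31.3, 43.2 and 53.1 CPM, KRT13 at 16.3, 15.8 and 34.8 CPM, and KRT75 at 11.8, 15.2 and 12.5 CPM. These were 24 of 75 sets examined. Chance flags about 1 in 20 such sets, but in 11 of the 24 the other 3 libraries had no count and the gap is the whole range by construction, so the number is not compared with chance. The 3 sets of a keratin share the line and are not independent. On the CPM scale itself, added after seeing the data, 39 sets from 15 keratins passed the critical value, with KRT15, KRT17, KRT81 and KRT86 joining the 8 in all 3 conditions.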

How the results depend on the processing

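Without the filter on low counts, SIVA-D160N against EV called 3 keratins (KRT17 at 1.71 and KRT6B at 2.05 on the log2 scale, and KRT6A) instead of 0, and the tissue interaction called 2 (KRT17 at 2.22 and KRT4 at 3.65). With the filter by condition, in which 17 keratins were tested, the calls fell to 15 for HCC1954 against MDA-MB-231, 14 for OVCAR8 against HCC1954 and 14 for SKOV3 against HCC1954. Without HCC1954 the interaction of KRT17 was -1.11. The only breast line was then MDA-MB-231, where KRT17 had 0, 4 and 2 counts, so the sign of that value is not interpreted. The fit with no replicate block called 0 keratins in each comparison of conditions and gave KRT17 0.80 in SIVA-D160N against EV. In that comparison KRT5, KRT80, KRT19 and KRT15 had an adjusted p under 0.05 in at least 1 alternative. They stayed under the fold required for a call. Leaving out a library or a line gave 23 calls for HCC1954 against MDA-MB-231, 22 for OVCAR8 against HCC1954, 8 to 9 for OVCAR8 against MDA-MB-231, 22 to 23 for SKOV3 against HCC1954, 11 to 13 for SKOV3 against MDA-MB-231, 15 to 16 for SKOV3 against OVCAR8, 25 for any line, and 0 in each comparison of conditions. The call of KRT81 in SKOV3 against MDA-MB-231 was lost under 6 alternatives, at -1.02 to -1.48, and that of KRT8 in SKOV3 against OVCAR8 without the OVCAR8 EV library, at -1.44. The other 161 counts stayed within 1.5 times of the count reported. Ratios inside 1 line rest on single libraries and carry no error, and keratins under 20 counts were given no ratio. The lower limits of KRT6A and KRT6B without the SIVA-D160N library were added after seeing the data.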
